A study of Arabidopsis thaliana with 32 samples.

Results

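The 8 libraries described here compared shoots with roots of wild-type (WT, Col-0) Arabidopsis thaliana seedlings under normal sulfur [nS], 4 libraries of each organ, and they are 8 of the 32 libraries of the study. They were chosen by their labels alone: organ, genotype and sulfur supply. The study as a whole set a mutant without the LSU genes (q-lsu-KO) against WT under sulfur deficiency [dS] and under [nS], in both organs. All 8 libraries came from seedlings of 15 days, grown on vertical agar plates of diluted Hoagland medium with 1 mM sulfate, in short days (8 h light, 16 h dark). The plants spent 10 days on that medium and a further 5 days after transfer to fresh medium of the same composition, so they carried no mutation and had met no shortage of sulfur. Each sample held tissue of at least 10 seedlings, and nothing in the labels says whether replicates came from separate plates or days, so the p-values below measure the spread between these samples, which may be technical. All 4 shoot libraries were prepared in sequencing pool 1 and all 4 root libraries in pool 3, so organ and pool cannot be told apart.

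Sequencing read the 3′ ends of polyadenylated transcripts, and the shoot libraries held 1440122 to 2032330 counts and the root libraries 1071809 to 2488983. Of 37336 annotated genes, 13205 had no count in any of the 8 libraries and 15971 passed the low-count filter and entered the quasi-likelihood test of edgeR. The filter lets a gene pass through the organ in which it is abundant, so counts of members that passed describe those genes and not whole families. Levels are given as CPM, read counts relative to a library total that was scaled by the trimmed mean of M values (TMM), with the SD over n = 4 libraries per organ after ±. Log2 fold changes are shoots over roots with their SE, and a gene was called when its Benjamini-Hochberg adjusted p was under 0.05 and its change over 1.5-fold. A 3′ count is not divided by length, so levels are compared between organs for 1 gene and not between genes. Pairs of replicates differed by more than sampling noise in every case (chi-square per degree of freedom 1.39 to 2.61), and replicates correlated at 0.9676 to 0.9751 in shoots and 0.9656 to 0.9802 in roots across genes, against 0.228 to 0.285 between the organs.

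Sulfate enters the plant through high-affinity transporters of the root epidermis and cortex and travels to the shoot in the xylem. It is reduced to sulfide in plastids, mainly those of leaves, and the sulfide is built into cysteine. Cysteine feeds glutathione, methionine and the glucosinolates, sulfur-rich defence compounds that are made from methionine (aliphatic) or tryptophan (indole), carried over long distances and broken down by thioglucosidases called myrosinases. Roots also take up nitrate, ammonium, phosphate and metals, whereas leaves hold the photosynthetic apparatus that supplies reductant for assimilation. In a bulk sample of a whole organ, a lower level can come from fewer cells of a type or from less RNA per cell, and these cannot be told apart.

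The following sequences lie upstream of genes that differed between the organs. Each is the 250 bases before the annotated gene start in the RefSeq annotation of TAIR10.1, 5′ to 3′ on the strand of the gene. In LHCA4 (chr3:17495034-17495283, minus strand), RBCS2B (chr5:15382072-15382321, minus strand) and LHCB4.1 (chr5:208616-208865, plus strand), 3 abundant photosynthesis genes, capitals mark the G-box CACGTG and the motif GATAAG on either strand. These 3 were taken because their windows hold CACGTG. Among the listed photosynthesis genes with that motif, they were the most abundant in shoots.
LHCA4: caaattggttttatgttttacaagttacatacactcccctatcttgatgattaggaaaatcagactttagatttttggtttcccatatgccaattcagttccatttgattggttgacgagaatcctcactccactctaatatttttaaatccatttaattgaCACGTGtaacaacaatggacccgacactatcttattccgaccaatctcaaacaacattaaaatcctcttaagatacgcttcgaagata
RBCS2B: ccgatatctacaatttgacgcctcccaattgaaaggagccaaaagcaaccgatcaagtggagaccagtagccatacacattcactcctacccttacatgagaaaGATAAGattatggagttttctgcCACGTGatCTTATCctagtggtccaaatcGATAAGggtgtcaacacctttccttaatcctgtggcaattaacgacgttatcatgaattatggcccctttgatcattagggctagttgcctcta
LHCB4.1: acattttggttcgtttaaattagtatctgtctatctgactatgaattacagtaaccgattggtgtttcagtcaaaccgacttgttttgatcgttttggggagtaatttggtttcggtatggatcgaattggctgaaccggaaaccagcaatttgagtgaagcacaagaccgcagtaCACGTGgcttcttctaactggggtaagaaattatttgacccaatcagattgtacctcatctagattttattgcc
The G-box began 88 bases before the gene start in LHCA4, 123 in RBCS2B and 74 in LHCB4.1, and RBCS2B also held GATAAG or its complement 146, 115 and 94 bases before the start. CACGTG, which reads the same on both strands, was present in this window of 10 of 48 tested photosystem genes (20.8%) and 5 of 26 carbon fixation genes (19.2%), against 7.37% of the windows of 15703 tested genes that matched the annotation. Shares did not follow the organ: none of the 24 shoot development, 10 root hair or 16 endodermis and root tip genes held it, and the flavonoid (33.3%), clock (30.8%), hypoxia (30%), methionine (22.2%) and iron (20%) lists had shares of like size to those of photosynthesis. GATAAG was in 22.9% of the photosystem windows and 11.5% of the carbon fixation windows, against 12.5% of all, and in 41.7% of the cysteine synthesis windows (5 of 12). A match is only a run of letters and says nothing of binding.

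The same window is given for neighbouring glucosinolate genes that differed in organ, CYP79F1 (chr1:5608432-5608681, plus strand) and CYP79F2 (chr1:5604794-5605043, plus strand). Capitals mark the longest run of letters that both share.
CYP79F1: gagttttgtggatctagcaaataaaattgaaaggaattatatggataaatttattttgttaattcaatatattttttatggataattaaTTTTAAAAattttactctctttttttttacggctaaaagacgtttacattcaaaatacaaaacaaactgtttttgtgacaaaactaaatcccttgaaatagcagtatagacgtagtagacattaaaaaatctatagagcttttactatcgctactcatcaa
CYP79F2: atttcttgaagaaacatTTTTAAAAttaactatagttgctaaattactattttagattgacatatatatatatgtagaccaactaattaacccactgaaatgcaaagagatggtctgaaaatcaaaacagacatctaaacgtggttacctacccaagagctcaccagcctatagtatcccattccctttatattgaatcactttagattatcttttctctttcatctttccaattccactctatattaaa
The longest run shared by these windows was 8 bases.

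The organs differed in most of the genes measured. Of the 15971 genes tested, 9453 were called (59.2%), 4633 of them higher in shoots (29%) and 4820 higher in roots (30.2%), and the 4 shoot values did not overlap the 4 root values in 64.3% of genes. A change of at least 4-fold was reached by 28.5% of genes, 2411 higher in shoots (15.1%) and 2137 higher in roots (13.4%), and changes past 32-fold by 853 genes in the direction of shoots and 897 in the direction of roots. The median log2 fold change was -0.06 with quartiles of -0.81 and 0.84. A member that is called is therefore no rarity here, and the counts below are to be read beside these shares. With library totals in place of TMM, the median of all genes moved to -0.83 and the share of calls higher in shoots to 24.6%, against 49% under TMM, and upper-quartile scaling gave -0.31 and 39%, so changes near 1.5-fold depend on the scaling.

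**Figure D1:**
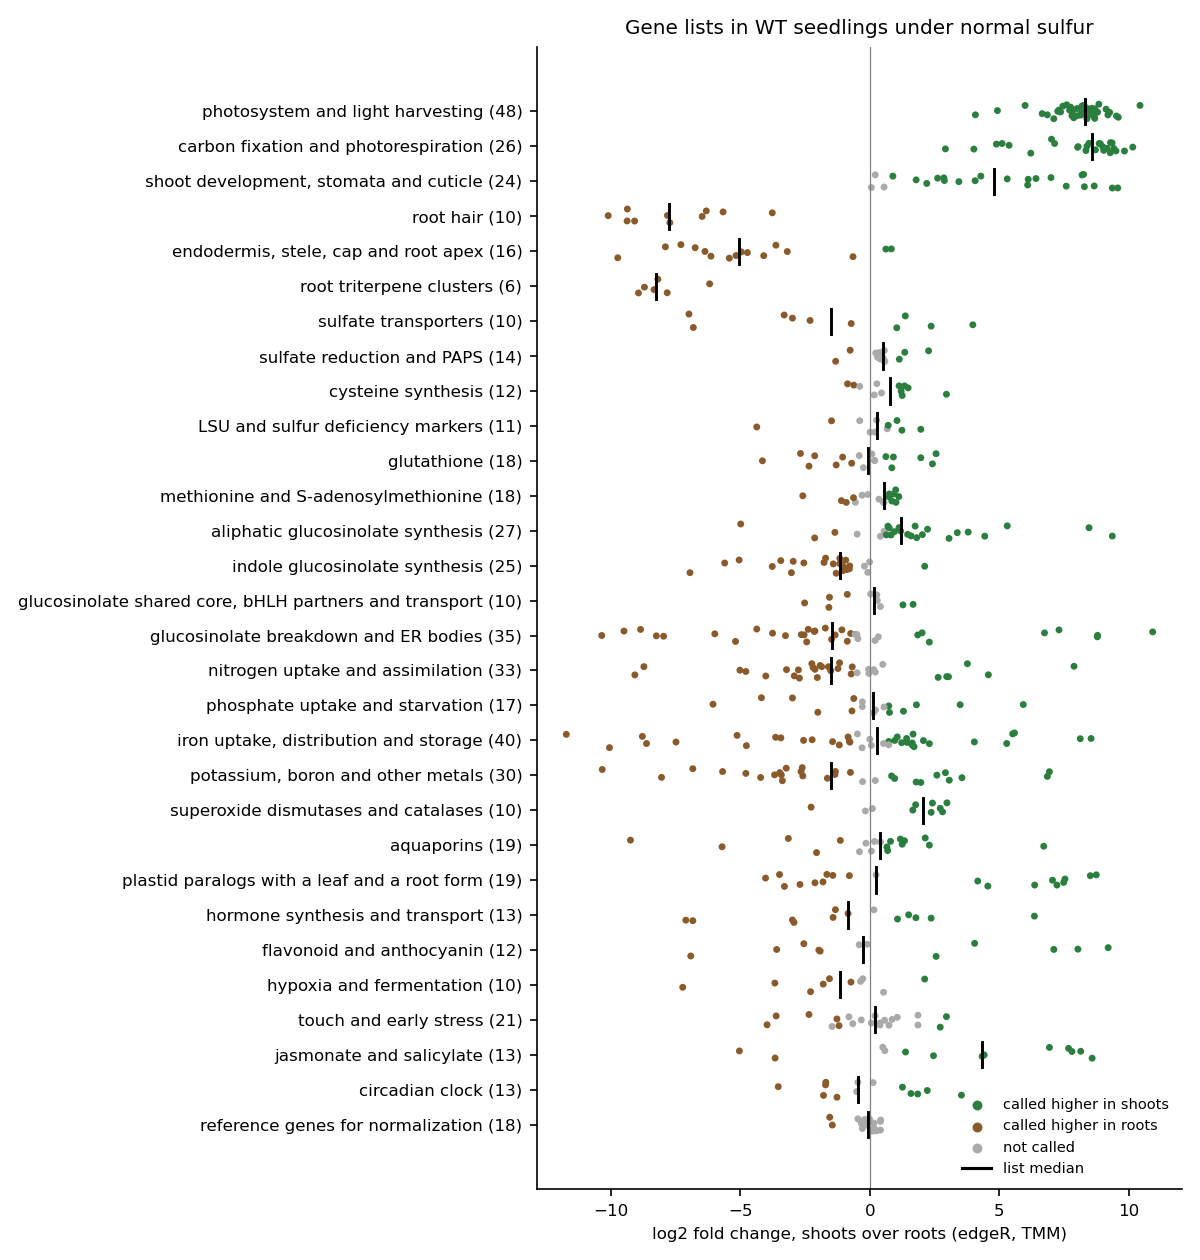
Log2 fold changes of shoots over roots for the tested members of 30 gene lists, 1 point per gene and the number of tested members beside each name, with the list median as a black line. The photosynthesis lists lie at medians of 8.32 and 8.59, root hair genes at -7.78, sulfate reduction at 0.49 and cysteine synthesis at 0.79; the fitted values of genes with no count in an organ depend on the prior count.

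Photosynthesis transcripts set the shoot libraries apart. The nuclear genes of photosystems, light harvesting, carbon fixation and photorespiration (75 genes) took 26.5, 26.4, 25.9 and 26.1% of all shoot counts, against 0.207, 0.178, 0.255 and 0.153% of root counts. Transcripts of the plastid genome took 5.05 ± 0.213% in shoots and 0.269 ± 0.0243% in roots, and those of the mitochondrial genome 0.141 ± 0.00896% in shoots and 1.58 ± 0.343% in roots. The 4 shares of each organ did not overlap for any of these classes (exact permutation test, two-sided, p = 0.0286, adjusted p = 0.0286 over 5 shares, the smallest p that 4 against 4 allows). Since polyadenylated 3′ ends were read, the plastid and mitochondrial shares count only transcripts caught that way and are not whole organelle RNA levels. Counts were also more concentrated in shoots: the 10 most abundant genes of each library held 10 ± 0.154% in shoots and 5.9 ± 0.564% in roots, and the 100 most abundant 35 ± 0.357% in shoots and 16.6 ± 0.557% in roots. At an equal total of 1071809 counts, 15804.2 ± 51.3 genes had at least 3 counts in shoots and 17886.5 ± 78.5 in roots (exact permutation test, two-sided, p = 0.0286). Equal totals left fewer counts for the other genes in shoots, where photosynthesis genes took a large share. How much of the gap in detection comes from that was not tested, so it is not a count of genes expressed.

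All 48 tested photosystem and light-harvesting genes and all 26 tested carbon fixation genes were higher in shoots, each at least 4-fold. RBCS1A, a small subunit of Rubisco, had 29800, 29400, 28600 and 28600 CPM in shoots, against 64.8, 50.3, 102 and 44.2 CPM in roots (log2 fold change 8.72 ± 0.22, adjusted p = 2.2e-13). LHCB1.3, a chlorophyll-binding protein of the main antenna of photosystem II, had 17700, 17100, 17100 and 17300 CPM in shoots, against 41.9, 36.3, 56.5 and 22.8 CPM in roots. Root library 3 was the highest of the roots in both genes and root library 4 the lowest, and the same held for the whole photosystem list, whose summed level was 238000 to 254000 CPM in shoots and 933, 821, 1210 and 615 CPM in roots. LHCA6, which links photosystem I to the NDH complex, had 291, 256, 246 and 284 CPM in shoots and a single count in 1 root library, a ratio of 2250 with a 95% counting interval of 402 to 88700. TKL1, a transketolase of the Calvin cycle, and PGK1, a phosphoglycerate kinase, changed less, with 1350 ± 77.7 CPM in shoots and 179 ± 8.46 in roots for TKL1 and 1600 ± 27.5 CPM in shoots and 46.5 ± 7.05 in roots for PGK1. LHCB1.2 and LHCB1.3 share a run of 37 bases near the transcript end, so reads may be split among LHCB1 genes and their separate levels are uncertain.

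Genes of leaf and surface development followed the same side. Of 35 genes for leaf polarity, stomata, cuticle and greening, 24 were tested, 21 were higher in shoots and none in roots. YAB1, YAB2 and YAB3, YABBY factors of the lower leaf side, had 48.1 ± 5.42, 55.5 ± 5.84 and 29.5 ± 1.78 CPM in shoots and no count in any root library, which makes them at least 133-fold, 154-fold and 81.8-fold higher. FAMA, which ends guard cell division, was at least 38.6-fold higher and the receptor TOO MANY MOUTHS of stomatal patterning at least 62-fold higher in shoots by the same floor of 3 counts over the 4 root libraries. The greening factors GLK1 and GLK2 had 149 ± 30.2 and 247 ± 35.5 CPM in shoots, against 1.01 ± 0.498 and 6.34 ± 1.79 CPM in roots. KCS6, the main elongase of leaf wax, had 328, 317, 266 and 266 CPM in shoots, against 3.92, 3.73, 5.25 and 2.95 CPM in roots (log2 fold change 6.1 ± 0.14, adjusted p = 1.1e-31). LACS2, an acyl-CoA synthetase of cutin, was an exception, with 49.2 ± 5.37 CPM in shoots and 43.3 ± 7.4 CPM in roots, and the 2 groups overlapped.

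Root hair, barrier and triterpene genes marked the root libraries. All 10 tested root hair genes of 12 were higher in roots. RHS19, a root-hair-specific peroxidase, had 96.2, 76.9, 65.8 and 89.9 CPM in roots and no count in shoots, which makes it at least 141-fold higher in roots, and EXPA7, an expansin of hair cells, was at least 87.7-fold higher in roots. Of 24 genes of endodermis, stele, cap and root apex, 16 were tested, 14 were higher in roots and 2 in shoots. CASP1, a scaffold of the Casparian strip, had 0.658, 0.749, 0.896 and 0.687 CPM in shoots, against 138, 129, 111 and 137 CPM in roots (log2 fold change -7.3 ± 0.24, adjusted p = 1.1e-26). The endodermal peroxidase PER64 was at least 111-fold higher in roots, and CYP86A1, which oxidises fatty acids for suberin, had 2.09 ± 1.16 CPM in shoots and 91.8 ± 13.9 CPM in roots. SCR, which patterns the endodermis and also acts in the leaf bundle sheath, was higher in shoots (22.9 ± 3.74 CPM in shoots, 14.9 ± 1.93 CPM in roots), a call that was lost without shoot library 2 (log2 fold change 0.54), root library 2 (0.57) or root library 4 (0.57) and a direction that turned with library totals as the scale. So was GL2, a factor of hairless root cells and of leaf trichomes, with 14.9 ± 4.46 CPM in shoots and 8.63 ± 3.13 CPM in roots and overlapping groups. Root apex genes such as PLT1 and PLT2 stayed under the filter, with 4.42 to 11 CPM in each root library and no count in shoots.

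The 6 genes of the thalianol and marneral clusters, which make root triterpenes, were all tested and all higher in roots. THAS1, the thalianol synthase, had 0.658, 0, 0 and 0.687 CPM in shoots, against 150, 171, 124 and 128 CPM in roots, a count ratio of 384 in favour of roots (95% counting interval 106 to 3170). THAA1, an acyltransferase of the cluster, was at least 54.9-fold and CYP71A16, the marneral oxidase, at least 64.1-fold higher in roots. Among markers chosen for the organs, all 12 shoot markers were higher in shoots, with summed levels of 63100 to 66100 CPM in shoots and 115 to 251 CPM in roots. All 13 tested of 16 root markers were higher in roots, with summed levels of 707 to 807 CPM in shoots and 4780 to 5510 CPM in roots. PYK10, described below with the breakdown genes, made up most of the sum in either organ, so the sums say little of the other root markers. These markers were picked by hand with earlier results of these data known, so they are no independent check. LACS2, SCR and GL2, the exceptions described above, were not among them. In all 4 root libraries 3 shoot markers had no count, and in all 4 shoot libraries 6 root markers had none.

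The genes furthest apart among the more abundant ones (mean log2 CPM 5 or more) were taken 12 per organ by size of change. AT2G21530, an FHA-domain protein, had 206, 208, 187 and 190 CPM in shoots and none in roots, at least 547-fold higher, and FKBP13, an immunophilin of the thylakoid lumen, was at least 469-fold higher. CSP41A, a ribonucleoprotein of chloroplasts, had 753 ± 7.44 CPM in shoots and 0.512 ± 0.39 CPM in roots. The other shoot genes at this end were TGG2, AT2G15020, AT1G67865, LHCA6, LrgB, RBCS1B, AT1G60590, AT3G62550 and AT1G21500. The extensin-like genes AT1G23720 and AT3G28550 had 1070 ± 516 and 1030 ± 246 CPM in roots and no count in shoots, at least 1680-fold and 1740-fold higher in roots. AT1G23720 had 1210, 737, 592 and 1730 CPM in the 4 root libraries, so its level within roots varied widely. Of the other 10 genes at this end, AT2G36255, AT5G33355, AT4G11393 and AT1G34047 are annotated as defensin-like, EXT10 and HRGP1 as wall glycoproteins, AT5G17820 as a peroxidase, AT1G52070 as a lectin and AT5G54370 as a late embryogenesis protein, and NAS2 is described with the iron genes. Across all genes, 106 with over 10 CPM in shoots had no count in roots and 273 with over 10 CPM in roots had none in shoots. The scaled totals of the shoot libraries were smaller in sum, so the floor in CPM was higher in shoots. Absence was thus easier to reach there, and the numbers of the organs are not on an equal footing.

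Every tested sulfate transporter differed between the organs. Of 12 SULTR genes, 10 were tested, 4 were higher in shoots and 6 in roots, 5 of these at least 4-fold. SULTR1;2, the main uptake transporter of roots with sufficient sulfate, had 2.63, 4.5, 1.79 and 2.75 CPM in shoots, against 406, 379, 350 and 409 CPM in roots (log2 fold change -6.99 ± 0.15, adjusted p = 8.1e-33). SULTR1;1, the uptake transporter that sulfur shortage induces, had no count in shoots and 13.1, 8.39, 5.87 and 7.37 CPM in roots, at least 14.7-fold higher in roots. In both uptake genes every root library was above every shoot library. SULTR1;3, a transporter of the phloem, had 3.18 ± 0.569 CPM in shoots and 15.3 ± 3.69 CPM in roots.

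SULTR2;1, a low-affinity transporter of the vasculature, had 111, 110, 139 and 155 CPM in shoots, against 51.7, 52.2, 50.3 and 42.7 CPM in roots (log2 fold change 1.37 ± 0.11, adjusted p = 1.2e-13). Every shoot library was above every root library. SULTR2;2 was higher in shoots too, with 20.5 ± 5.8 CPM in shoots and 4.07 ± 1.48 CPM in roots. SULTR3;1, which carries sulfate into chloroplasts, had 25, 28.5, 43.9 and 30.9 CPM in shoots, against 0, 1.86, 2.47 and 2.95 CPM in roots (log2 fold change 3.98 ± 0.31, adjusted p = 5.2e-14). SULTR3;4 and SULTR3;5, members of the same subfamily, lay on the other side, with 4.39 ± 1.89 and 1.86 ± 0.947 CPM in shoots, against 33.7 ± 2.94 and 19.2 ± 3.91 CPM in roots. The vacuolar exporters were split as well: SULTR4;1 had 42.1 ± 4.95 CPM in shoots and 68.6 ± 3.5 CPM in roots (log2 fold change -0.72 ± 0.12, adjusted p = 1.7e-06), and SULTR4;2 had 20.7 ± 2.46 CPM in shoots and 9.87 ± 0.896 CPM in roots (log2 fold change 1.04 ± 0.21, adjusted p = 2.7e-05). SULTR3;2 and SULTR3;3 did not pass the filter.

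**Figure D2:**
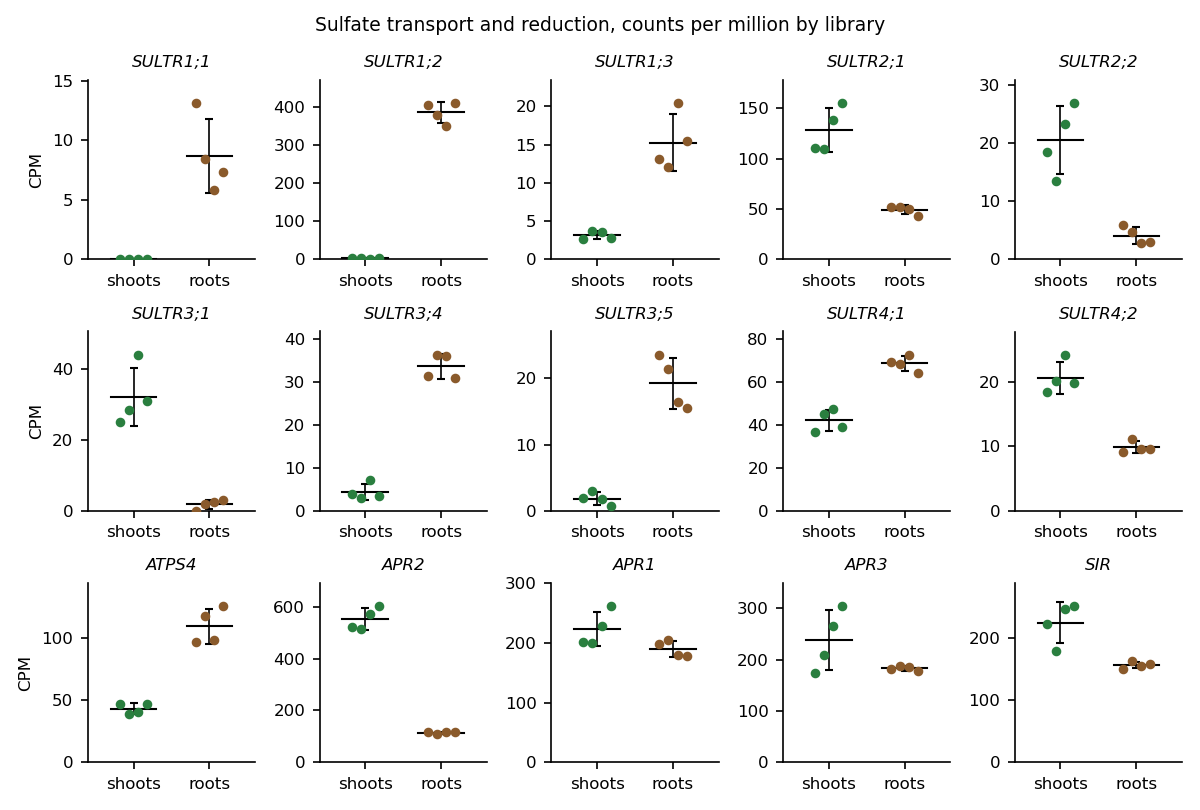
CPM of 15 genes of sulfate transport and reduction in the 4 shoot and 4 root libraries, with the mean and SD in black; each panel has its own scale from 0. SULTR1;2 lies at 350 to 409 CPM in roots and under 5 CPM in shoots, whereas the values of APR1 and APR3 overlap between the organs.

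In the reduction pathway 9 of 14 tested genes were not called. Of 15 genes of sulfate activation, reduction and PAPS supply, 14 were tested, 3 were higher in shoots and 2 in roots, and the list median was 0.49. The summed level of the list was 2270 to 2710 CPM in shoots and 1510 to 1650 CPM in roots. The counts were 3 to 6 and 1 to 2 with single libraries left out, 6 and 2 with scaling factors set without photosynthesis genes, and 1 and 2 with library totals as the scale. APR2, the APS reductase that carries most of the activity in Arabidopsis, was the member past 4-fold, with 523, 514, 571 and 601 CPM in shoots, against 118, 109, 116 and 116 CPM in roots (log2 fold change 2.27 ± 0.08, adjusted p = 2.7e-26). Its isozymes were not called: APR1 had 223 ± 28.4 CPM in shoots and 190 ± 12.7 CPM in roots, and APR3 had 174, 210, 266 and 304 CPM in shoots, against 182, 188, 185 and 178 CPM in roots. The shoot values of APR3 spread widely around the root values, which lay close together. Among the ATP sulfurylases, which activate sulfate, ATPS2 (86.7 ± 11.1 CPM in shoots, 38.8 ± 6.06 CPM in roots) and ATPS3 (43 ± 10.2 CPM in shoots, 16.9 ± 3.19 CPM in roots) were higher in shoots. ATPS4 had 46.7, 39, 40.3 and 46.7 CPM in shoots, against 96.8, 117, 97.9 and 125 CPM in roots (log2 fold change -1.32 ± 0.12, adjusted p = 6.9e-13). ATPS1, sulfite reductase SIR, and the APS kinases APK1 and APK2, which make the sulfate donor PAPS, had adjusted p under 0.05 but changes under 1.5-fold, with 510 ± 34 CPM in shoots and 348 ± 41.8 CPM in roots for ATPS1 and 224 ± 32.8 CPM in shoots and 156 ± 5.11 CPM in roots for SIR. PAPST1, which exports PAPS from plastids, was higher in roots (18.5 ± 4.96 CPM in shoots, 31.6 ± 7.74 CPM in roots), a call lost without shoot library 1 (log2 fold change -0.57).

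In cysteine synthesis 12 of 13 genes were tested, 6 were higher in shoots and 2 in roots, a balance that turned to 2 and 4 with library totals as the scale. The serine acetyltransferases SERAT2;1 and SERAT2;2 and the cytosolic cysteine synthase OASA1 were not called, and OASA1 had 373 ± 11.4 CPM in shoots and 332 ± 14.5 CPM in roots. The plastid cysteine synthase OASB was higher in shoots (36.7 ± 3.42 CPM in shoots, 13.4 ± 4.28 CPM in roots) and the mitochondrial OASC in roots (48.2 ± 8.32 CPM in shoots, 88.1 ± 6.55 CPM in roots). CYSC1, the mitochondrial cyanoalanine synthase that uses cysteine to bind cyanide, had 485, 562, 474 and 555 CPM in shoots, against 209, 259, 225 and 256 CPM in roots (log2 fold change 1.13 ± 0.08, adjusted p = 3.4e-16). CS26, the S-sulfocysteine synthase of the thylakoid lumen, had the largest change of the list, with 16.4 ± 4.61 CPM in shoots and 2.18 ± 1.04 CPM in roots.

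Of 12 LSU and sulfur deficiency marker genes, 11 were tested, 4 were higher in shoots and 2 in roots, against 2 and 3 with upper-quartile scaling and 1 and 4 with library totals. LSU1 had 107, 177, 236 and 234 CPM in shoots, against 176, 165, 129 and 161 CPM in roots, and LSU2 had 126, 161, 178 and 214 CPM in shoots, against 181, 171, 161 and 164 CPM in roots. Neither was called, and in both the 4 shoot values enclosed the root values. LSU3 had 34.9, 54, 83.3 and 104 CPM in shoots, against 33.4, 32.6, 27.2 and 22.1 CPM in roots (log2 fold change 1.24 ± 0.37, adjusted p = 0.0211), with shoot library 1 next to the root values; the call was lost without root library 3 (adjusted p = 0.064) or root library 4 (0.053) and with replicate number as a block (0.07). LSU4 had 7.35 ± 5.46 CPM in shoots and 19.5 ± 5.92 CPM in roots (log2 fold change -1.48 ± 0.33, adjusted p = 0.0005), so within the LSU family the called members lay on opposite sides. SDI1, a repressor of glucosinolate synthesis, had 40.8, 72.7, 112 and 109 CPM in shoots, against 37.9, 43.8, 33.7 and 47.1 CPM in roots (log2 fold change 1.05 ± 0.34, adjusted p = 0.0289), and shoot library 1 overlapped the roots. That call was lost without any single library except shoot library 1 or 2, at adjusted p of 0.05 to 0.087. GGCT2;1, which recycles glutathione, had 82.3, 98.9, 110 and 90 CPM in shoots, against 23.5, 32.2, 25.3 and 11 CPM in roots (log2 fold change 1.97 ± 0.18, adjusted p = 9.3e-09). BGLU28, a glucosidase marker of sulfur deficiency, had at most 3.43 CPM in any library and was not tested, and its relative BGLU30 had 2.43 ± 1.95 CPM in shoots and 56.2 ± 14.3 CPM in roots (log2 fold change -4.37 ± 0.32, adjusted p = 3.9e-11).

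Of 20 glutathione genes, 18 were tested, 6 were higher in shoots and 7 in roots. The synthesis enzyme GSH1 was not called (167 ± 10 CPM in shoots, 146 ± 7.09 CPM in roots). The 2 glutathione reductases parted: the organellar GR2 had 195, 169, 210 and 163 CPM in shoots, against 34.7, 35.4, 26.9 and 28.7 CPM in roots (log2 fold change 2.56 ± 0.11, adjusted p = 2.1e-22), and the cytosolic GR1 had 99.4, 98.9, 86 and 79 CPM in shoots, against 237, 232, 207 and 222 CPM in roots (log2 fold change -1.3 ± 0.09, adjusted p = 2.8e-16). The phi-class glutathione transferases of the list were all higher in roots, GSTF8 with 290 ± 87.7 CPM in shoots and 1270 ± 57.8 CPM in roots and GSTF7 with 46.2 ± 37.2 CPM in shoots and 850 ± 88.4 CPM in roots. GSTF6 and GSTF7 are neighbours with 92.4% identical transcripts, so their separate counts are uncertain.

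All 18 methionine genes were tested, 8 were higher in shoots and 4 in roots, a balance that was 5 and 5 with upper-quartile scaling and turned to 0 and 7 with library totals. CGS1, the committed enzyme of methionine synthesis, had 523, 477, 508 and 459 CPM in shoots, against 228, 254, 241 and 256 CPM in roots (log2 fold change 1.01 ± 0.07, adjusted p = 8.5e-16). SAHH1, which clears S-adenosylhomocysteine, was higher in roots (747 ± 33.2 CPM in shoots, 1610 ± 58 CPM in roots), as was the S-adenosylmethionine synthetase SAM1 (275 ± 20.2 CPM in shoots, 518 ± 47.8 CPM in roots). The homocysteine methyltransferase HMT1 had 4.3 ± 1.61 CPM in shoots and 26.4 ± 3.32 CPM in roots. MS1, a methionine synthase, was not called, with 1420 ± 91.7 CPM in shoots and 985 ± 58.6 CPM in roots.

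The glucosinolate branches lay on opposite sides. Of 30 genes of aliphatic synthesis, 27 were tested, 21 were higher in shoots and 3 in roots, with a list median of 1.19. These counts depended on the scaling: 17 and 4 (median 0.94) with upper-quartile scaling, and 13 and 4 (median 0.42) with library totals. Of 25 genes of indole synthesis, all tested, 1 was higher in shoots and 21 in roots, with a list median of -1.16, against the median of -0.06 over all genes. The indole counts were 1 and 21 with upper-quartile scaling and 1 and 24 with library totals. That list includes tryptophan synthesis genes (ASA1, ASB1, IGPS, TSA1, TSB1 and TSB2), all but TSB1 called higher in roots, so not every member is specific to glucosinolates. The aliphatic list likewise holds genes of leucine synthesis or shared with it, among them BCAT3, IMD3 and IIL1. Of these, BCAT3 and IMD3 were called higher in shoots. MYB28, the main activator of the aliphatic branch, had 115, 93.7, 110 and 94.8 CPM in shoots, against 36, 29.4, 29.3 and 29.5 CPM in roots (log2 fold change 1.75 ± 0.12, adjusted p = 3.6e-16). MYB29, its partner, had 55.3, 43.5, 50.2 and 43.3 CPM in shoots and no count in roots, at least 133-fold higher in shoots. The enzymes followed in the same direction: CYP83A1, which oxidises aliphatic aldoximes, had 422 ± 37.4 CPM in shoots and 122 ± 12 CPM in roots, and GSTU20 had 858, 743, 944 and 813 CPM in shoots, against 82.4, 88.5, 69.2 and 84.7 CPM in roots (log2 fold change 3.38 ± 0.09, adjusted p = 6.6e-30). BAT5, the plastid carrier of chain-elongation intermediates, had 61.4 ± 9.6 CPM in shoots and 27 ± 7.63 CPM in roots. GSL-OH, which adds a hydroxyl to the side chain, had 727 ± 75.4 CPM in shoots and 333 ± 9.61 CPM in roots. The sulfotransferase SOT17, the last step of the core, was not called, with 77, 54.7, 78 and 79 CPM in shoots, against 52.3, 56.4, 48.8 and 62.6 CPM in roots.

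In the indole branch, MYB34, an activator prominent in roots, had 34.6 ± 10.7 CPM in shoots and 73.3 ± 14 CPM in roots, MYB51 had 8.83 ± 6.14 CPM in shoots and 24 ± 1.29 CPM in roots, and MYB122 was at least 16.2-fold higher in roots, with no count in shoots. CYP79B2, which commits tryptophan to the pathway, had 44.8, 37.5, 37.6 and 47.4 CPM in shoots, against 145, 144, 126 and 140 CPM in roots (log2 fold change -1.71 ± 0.11, adjusted p = 3.2e-17). The enzymes that modify the indole ring varied in size of change. CYP81F4, which opens the route to 1-methoxy-indole glucosinolate, had 17.1, 20.2, 34.9 and 26.1 CPM in shoots, against 845, 872, 759 and 717 CPM in roots (log2 fold change -5.05 ± 0.12, adjusted p = 3.8e-25), CYP81F2 had 5.32 ± 1.35 CPM in shoots and 59.8 ± 7.87 CPM in roots, and CYP81F1 had 7.45 ± 1.46 CPM in shoots and 15.8 ± 4.35 CPM in roots. The methyltransferase IGMT5 had 40.9 ± 4.03 CPM in shoots and 316 ± 37 CPM in roots. GSTF9, assigned to both branches, was level between the organs, with 1270 ± 81.3 CPM in shoots and 1280 ± 61.5 CPM in roots (log2 fold change -0.01 ± 0.07), and was not called, nor was UGT74B1, which glucosylates the core.

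Steps that both branches use, with their bHLH partners and transporters, were split. Of 11 genes, 10 were tested, 2 were higher in shoots and 4 in roots. The C-S lyase SUR1 had 149 ± 11 CPM in shoots and 113 ± 6.21 CPM in roots and was not called. Of the glucosinolate importers, GTR1 had 82.3, 74.2, 76.2 and 71.4 CPM in shoots, against 26.8, 23.3, 24.4 and 20.6 CPM in roots (log2 fold change 1.67 ± 0.13, adjusted p = 8.9e-15). GTR2 was higher in roots (33 ± 6.51 CPM in shoots, 61.4 ± 4.19 CPM in roots), and GTR3, which prefers indole glucosinolates, had 5.27, 14.2, 15.2 and 17.2 CPM in shoots, against 90.9, 65.7, 68.6 and 72.2 CPM in roots (log2 fold change -2.52 ± 0.2, adjusted p = 1.6e-11). MYC4, a bHLH partner of the MYB activators, was higher in shoots (43 ± 8.36 CPM in shoots, 17.3 ± 4.4 CPM in roots), whereas MYC2 and MYC3 were not called.

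Breakdown had a shoot set and a root set of genes. Of 41 genes of glucosinolate breakdown and ER bodies, 35 were tested, 8 were higher in shoots and 22 in roots. TGG1, the leaf myrosinase of guard and myrosin cells, had 2020, 1880, 1690 and 1780 CPM in shoots, against 4.58, 1.4, 6.79 and 1.47 CPM in roots (log2 fold change 8.79 ± 0.17, adjusted p = 9.8e-23). TGG2 had 614 ± 62.6 CPM in shoots and 2 counts in all roots, a ratio of 2560 (95% counting interval 708 to 21100). The root myrosinases TGG4 and TGG5 showed the reverse: TGG5 had no count in shoots and 86.3, 95.5, 96.6 and 106 CPM in roots, at least 174-fold higher in roots. TGG4 and TGG5 have transcripts of 96.9% identity, so their separate levels are uncertain, and both lay on the root side. PYK10, the myrosinase of root ER bodies, had 714, 688, 783 and 753 CPM in shoots, against 3830, 4260, 3720 and 3490 CPM in roots (log2 fold change -2.38 ± 0.08, adjusted p = 1.8e-26). The ER-body glucosidase BGLU18, known from wounded leaves, had 205, 219, 168 and 160 CPM in shoots, against 0.654, 1.4, 3.09 and 0 CPM in roots (log2 fold change 6.75 ± 0.24, adjusted p = 1.8e-16). ER-body genes NAI1, NAI2 and MEB1 were all higher in roots, NAI2 with 80 ± 4.16 CPM in shoots and 263 ± 18.4 CPM in roots.

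The proteins that steer the products were divided too. ESM1, which favours isothiocyanates, had 847, 793, 753 and 742 CPM in shoots, against 1.96, 0, 3.4 and 0 CPM in roots (log2 fold change 8.8 ± 0.23, adjusted p = 6.3e-14), and ESP, the epithiospecifier protein, had 30.8 ± 4.86 CPM in shoots and a single count in roots (ratio 255, 95% counting interval 45.1 to 10100). Of the nitrile specifiers, NSP3 and NSP4 were higher in roots, NSP1 (207 ± 10.9 CPM in shoots, 293 ± 28 CPM in roots) and NSP5 (194 ± 5.54 CPM in shoots, 169 ± 5.34 CPM in roots) were not called, and NSP2 had no count. Of 6 jacalin lectins tested, 5 were higher in roots, JAL34 with 152 ± 18.6 CPM in shoots and 957 ± 60.7 CPM in roots. JAL30 was not called (764 ± 46.3 CPM in shoots, 1140 ± 114 CPM in roots), and JAL23, not tested, had 9.91 ± 3.97 CPM in shoots and no count in roots.

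Several neighbouring relatives in these pathways took opposite organs, a set of pairs chosen after their values were seen. CYP79F1, which starts the core of short- and long-chain aliphatic glucosinolates, had 284, 188, 250 and 233 CPM in shoots, against 0, 0.466, 0.926 and 0.737 CPM in roots (log2 fold change 8.47 ± 0.23, adjusted p = 9.7e-25). CYP79F2, which takes long-chain substrates and lies 1183 bases away, had 21.7, 15, 21.5 and 19.9 CPM in shoots, against 47.7, 50.3, 49.1 and 53 CPM in roots (log2 fold change -1.35 ± 0.15, adjusted p = 2.1e-10). Their transcripts are 88.6% identical, but within the last 300 bases, where 3′ reads fall, the longest run they share is 8 bases. MAM1, which elongates methionine by few carbons, had 409, 304, 384 and 366 CPM in shoots, against 43.8, 44.7, 40.5 and 47.9 CPM in roots (log2 fold change 3.06 ± 0.1, adjusted p = 2.2e-27). MAM3, its neighbour 11144 bases away that makes all chain lengths, had 34.9, 35.2, 29.6 and 36.4 CPM in shoots, against 164, 151, 140 and 148 CPM in roots (log2 fold change -2.13 ± 0.11, adjusted p = 3.5e-20). In all 4 genes the organs did not overlap.

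The S-oxygenases FMOGS-OX3 (76.6 ± 7.25 CPM in shoots, 5.47 ± 1.99 CPM in roots) and FMOGS-OX4 (13.2, 8.99, 6.27 and 8.93 CPM in shoots, 332, 292, 320 and 277 CPM in roots) stand 5885 bases apart. The indole methyltransferase IGMT4 had 268, 303, 272 and 385 CPM in shoots, against 81.1, 62, 65.2 and 78.8 CPM in roots, and was the only member of its branch higher in shoots. IGMT2, 1990 bases away and 92.3% identical in transcript, had 2.63, 3, 2.69 and 21.3 CPM in shoots, against 125, 87.6, 95.4 and 123 CPM in roots, and shoot library 4 stood apart. The nitrilases NIT1 (1490 ± 146 CPM in shoots, 303 ± 28.6 CPM in roots) and NIT2 (2.79 ± 1.89 CPM in shoots, 191 ± 11.8 CPM in roots) lie 1088 bases apart. Of the GDSL-lipase-like genes of the PYK10 complex, GLL23 had 191 ± 20.5 CPM in shoots and 52.4 ± 3.49 CPM in roots, and GLL22, 2068 bases away, had 1.02 ± 0.847 CPM in shoots and 294 ± 27.7 CPM in roots. All of these were called, and the longest run shared in the last 300 transcript bases was 8 to 20 bases in the pairs named here.

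**Figure D3:**
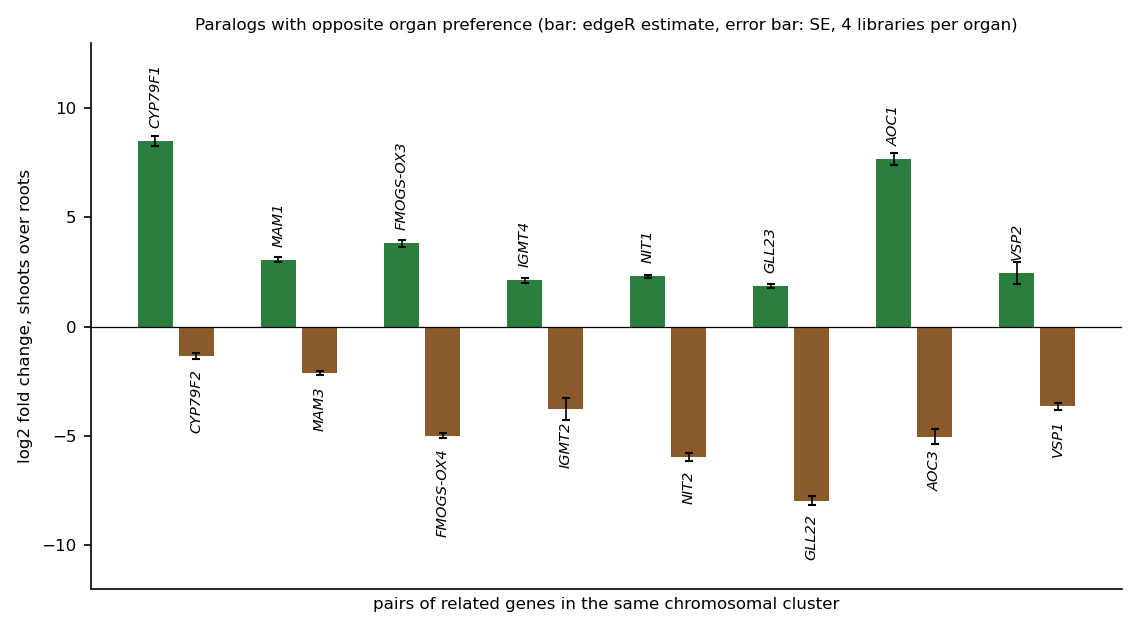
Log2 fold changes of shoots over roots (bars, with the SE as error bars, 4 libraries per organ) for 8 pairs of related genes of the same chromosomal cluster, the member higher in shoots in green and the member higher in roots in brown. CYP79F1 stands at 8.47 and CYP79F2 at -1.35, and AOC1 at 7.68 and AOC3 at -5.04.

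Nitrogen genes lay mostly in roots. Of 42 genes of nitrogen uptake and assimilation, 33 were tested, 6 were higher in shoots and 21 in roots. NRT2.1, the main high-affinity nitrate transporter, had 0, 0.749, 0 and 0 CPM in shoots, against 118, 133, 154 and 149 CPM in roots, a count ratio of 766 in favour of roots (95% counting interval 137 to 30300), and its partner protein NRT3.1 had 10.1 ± 2.78 CPM in shoots and 331 ± 10.5 CPM in roots. NRT1.1, the nitrate transceptor, had 74.9 ± 9.92 CPM in shoots and 344 ± 25.5 CPM in roots, and NRT1.5, which loads nitrate into the root xylem, had 8.06 ± 1.52 CPM in shoots and 227 ± 18.3 CPM in roots. On the leaf side stood NRT1.7, which moves nitrate out of old leaves (42.9 ± 8.35 CPM in shoots, 5.02 ± 1.6 CPM in roots), and NRT1.4, of the petiole (91.8 ± 3.08 CPM in shoots, 11.2 ± 1.54 CPM in roots). The ammonium transporters AMT1;1, AMT1;2 and AMT2;1 were higher in roots, and AMT1;3 had 1 count in shoots and 110 ± 5.78 CPM in roots (ratio 591, 95% counting interval 106 to 23400).

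The enzymes that bind ammonium had a leaf form and a root form. GLN2, the plastid glutamine synthetase that recaptures photorespiratory ammonium, had 1620, 1640, 1590 and 1610 CPM in shoots, against 93.5, 118, 133 and 124 CPM in roots (log2 fold change 3.77 ± 0.09, adjusted p = 3.2e-32). The cytosolic GLN1;2 had 258, 289, 271 and 266 CPM in shoots, against 2570, 2460, 2400 and 2670 CPM in roots (log2 fold change -3.22 ± 0.08, adjusted p = 3.1e-31). Neither pair of groups came near to overlapping. GLU1, the ferredoxin-dependent glutamate synthase of leaves, had 679 ± 27.4 CPM in shoots and 2.84 ± 1.69 CPM in roots, whereas its relative GLU2 (20.4 ± 5.23 CPM in shoots, 153 ± 3.57 CPM in roots) and the NADH-dependent GLT1 (71.7 ± 5.3 CPM in shoots, 488 ± 42.5 CPM in roots) were higher in roots. Nitrate reductase NIA1 was higher in roots (37.6 ± 10.9 CPM in shoots, 106 ± 8.71 CPM in roots). NIA2, the major form, had 311 ± 36.9 CPM in shoots and 221 ± 13.6 CPM in roots, a change under 1.5-fold.

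Of 29 phosphate genes 17 were tested, 6 were higher in shoots and 6 in roots. PHT1;1, an uptake transporter, had 1.97, 4.5, 0.896 and 1.37 CPM in shoots, against 142, 155, 138 and 179 CPM in roots (log2 fold change -6.06 ± 0.21, adjusted p = 4.2e-26). PHT2;1, the chloroplast transporter, had 306, 283, 308 and 303 CPM in shoots, against 6.54, 4.66, 4.94 and 2.95 CPM in roots (log2 fold change 5.93 ± 0.13, adjusted p = 1.5e-32). PHO1, which loads phosphate into the xylem, was higher in roots (8.96 ± 3.33 CPM in shoots, 69.3 ± 2.78 CPM in roots), and SQD1, for the plastid sulfolipid, in shoots (106 ± 4.72 CPM in shoots, 8.96 ± 1.78 CPM in roots). Of the starvation-induced genes, SPX3, IPS1 and PHT1;3 had at most 1.85 CPM in any library, whereas SPX1 had 62.8 ± 7.79 CPM in shoots and 24.8 ± 7.42 CPM in roots.

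**Figure D4:**
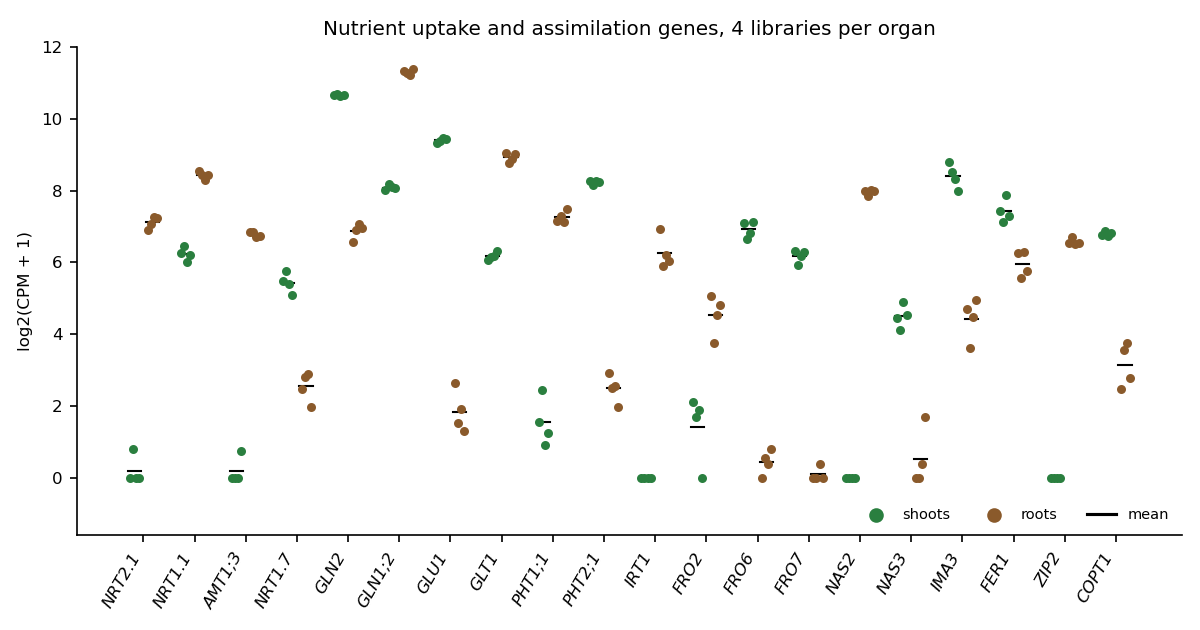
Levels of 20 genes of nitrogen, phosphate, iron, zinc and copper use as log2(CPM + 1), 1 point per library (4 shoots in green, 4 roots in brown) and the mean as a black line. GLN2 and GLN1;2, PHT2;1 and PHT1;1, and FRO6 and FRO2 each show a shoot gene beside a root gene of related activity.

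Of 49 iron genes 40 were tested, 18 were higher in shoots and 16 in roots, which turned to 14 and 19 with library totals as the scale. Uptake genes lay in roots: IRT1, the iron importer of the epidermis, had no count in shoots and 120, 59.2, 72.9 and 64.8 CPM in roots, at least 139-fold higher in roots, and its regulator FIT had 0.868 ± 1.02 CPM in shoots and 35.5 ± 5.17 CPM in roots. The ferric reductases FRO2 (2.06 ± 1.44 CPM in shoots, 23.7 ± 8.55 CPM in roots) and FRO6 (135, 100, 112 and 138 CPM in shoots, 0, 0.466, 0.309 and 0.737 CPM in roots) had opposite sides, and the chloroplast reductase FRO7 had 72.2 ± 8.85 CPM in shoots and 1 count in roots (ratio 601, 95% counting interval 107 to 23800). Of the nicotianamine synthases, NAS2 had no count in shoots and 254, 229, 258 and 253 CPM in roots, at least 450-fold higher in roots, and NAS3 had 22.1 ± 5.03 CPM in shoots and 0.63 ± 1.06 CPM in roots. F6'H1, which makes the coumarin scopoletin, had 0.725 ± 0.55 CPM in shoots and 322 ± 16.4 CPM in roots, and its exporter PDR9 had 1.08 ± 1.62 CPM in shoots and 213 ± 17.9 CPM in roots. The proton pump AHA2 had 137 ± 12.3 CPM in shoots and 1720 ± 80.9 CPM in roots. The signal peptide IMA3 had 442, 368, 319 and 252 CPM in shoots, against 24.9, 11.2, 21.3 and 30.2 CPM in roots (log2 fold change 4.04 ± 0.29, adjusted p = 1.3e-05), and BHLH100, a transcription factor of iron deficiency, had 64.5, 56.2, 39.4 and 28.8 CPM in shoots, against 0.654, 0.932, 1.24 and 0.737 CPM in roots. Both were highest in shoot library 1 and lowest in shoot library 4. Ferritins FER1, FER3 and FER4 were higher in shoots, FER1 with 175 ± 41.9 CPM in shoots and 63.2 ± 15.7 CPM in roots.

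Of 37 genes for potassium, boron and other metals, 30 were tested, 10 were higher in shoots and 18 in roots. ZIP2 had no count in shoots and 92.2, 103, 90.2 and 92.1 CPM in roots, at least 170-fold higher in roots, and the zinc importers ZIP1, ZIP3, ZIP4, ZIP5 and ZIP9 were higher in roots as well. The potassium channel AKT1 was higher in roots (4.44 ± 1.73 CPM in shoots, 48.1 ± 5.18 CPM in roots) and the phloem channel AKT2 in shoots (53.1 ± 9.62 CPM in shoots, 0.31 ± 0.439 CPM in roots), as was the guard cell channel KAT1. The boric acid channels NIP5;1 (10.1 ± 0.978 CPM in shoots, 106 ± 5.8 CPM in roots) and NIP6;1 (42 ± 4.39 CPM in shoots, 5.54 ± 1.21 CPM in roots) were likewise divided. The copper importer COPT1 had 110 ± 5 CPM in shoots and 8.39 ± 3.74 CPM in roots. Among metallothioneins, cysteine-rich metal-binding proteins, MT1C had 61.9 ± 5.88 CPM in shoots and 1150 ± 80 CPM in roots and MT3 had 2770 ± 67 CPM in shoots and 331 ± 15.4 CPM in roots.

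Of 19 plastid proteins known in leaf and root forms, all tested, 9 were higher in shoots and 9 in roots. Ferredoxin FD2, which takes electrons from photosystem I, had 3700, 3830, 4210 and 4200 CPM in shoots, against 50.4, 44.7, 47.6 and 50.8 CPM in roots (log2 fold change 6.37 ± 0.1, adjusted p = 1.7e-37), whereas the root ferredoxin FD3 had 41.5, 48, 42.1 and 46.7 CPM in shoots, against 523, 507, 475 and 504 CPM in roots (log2 fold change -3.49 ± 0.09, adjusted p = 1.5e-30). The matching reductases followed, LFNR2 with 1350 ± 58.6 CPM in shoots and 3.13 ± 1.66 CPM in roots and RFNR2 with 30.5 ± 5.61 CPM in shoots and 302 ± 26.6 CPM in roots. PPT1, the phosphoenolpyruvate translocator, was the member not called, with 176 ± 10.6 CPM in shoots and 149 ± 9.46 CPM in roots. Of 10 superoxide dismutases and catalases, 7 were higher in shoots, with CAT2 of photorespiration at 1210 ± 84.2 CPM in shoots and 173 ± 8.43 CPM in roots, and 1 in roots, the cytosolic CSD1 (56 ± 3.11 CPM in shoots, 273 ± 27.3 CPM in roots). Of 19 aquaporins, 9 were higher in shoots and 5 in roots, which was 6 and 6 with upper-quartile scaling and turned to 3 and 8 with library totals: PIP2;6 had 425 ± 23.1 CPM in shoots and 3.43 ± 2.17 CPM in roots, and TIP2;3 had no count in shoots and 44.6 ± 1.74 CPM in roots, at least 79.8-fold higher in roots.

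In flavonoid synthesis 12 of 16 genes were tested, 5 were higher in shoots and 5 in roots. CHS, the entry enzyme, had 155, 205, 157 and 99.6 CPM in shoots, against 930, 931, 956 and 770 CPM in roots (log2 fold change -2.55 ± 0.19, adjusted p = 9.8e-06), and the flavonol synthase FLS1 and its activator MYB12 were higher in roots. The anthocyanin branch was on the shoot side: LDOX had 47.4, 59.2, 47.5 and 19.9 CPM in shoots and no count in roots, at least 118-fold higher, DFR had 55.3, 68.2, 58.2 and 24.7 CPM in shoots and a single count in roots, and the activator PAP1 had 30.3, 32.2, 32.3 and 13 CPM in shoots and 1 count in roots. Shoot library 4 was the lowest of the shoots in all 4 of CHS, LDOX, DFR and PAP1. Of 17 hormone genes 13 were tested, 5 were higher in shoots and 7 in roots, with the auxin exporter PIN2 of the root tip at 0.546 ± 0.713 CPM in shoots and 72.2 ± 7.19 CPM in roots and PIN7 at 132 ± 11.1 CPM in shoots and 38.6 ± 3.31 CPM in roots.

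Of 18 jasmonate and salicylate genes 13 were tested, 9 were higher in shoots and 2 in roots. LOX2, the chloroplast lipoxygenase that begins jasmonate synthesis, had 644, 710, 548 and 433 CPM in shoots, against 0.654, 0.466, 3.09 and 0 CPM in roots (log2 fold change 8.59 ± 0.39, adjusted p = 6e-07). The cyclases AOC1 (138 ± 26.7 CPM in shoots, 0.59 ± 0.601 CPM in roots) and AOC3 (1.22 ± 1.42 CPM in shoots, 45.2 ± 9.31 CPM in roots) were opposite, as were the storage proteins VSP2 (310, 417, 190 and 102 CPM in shoots, 52.3, 63.4, 35.5 and 34.6 CPM in roots) and VSP1 (9.49 ± 3.39 CPM in shoots, 121 ± 16.2 CPM in roots). VSP1 and VSP2 share a run of 46 bases near the transcript end, so reads may be split between them. Among clock genes, 13 of 15 were tested, 5 were higher in shoots and 5 in roots. The morning gene CCA1 had 59 ± 8.71 CPM in shoots and 5.53 ± 1.87 CPM in roots. The evening gene TOC1 had 8.05 ± 1.58 CPM in shoots and 27.5 ± 3.27 CPM in roots. The largest change toward roots was that of FKF1 (log2 fold change -3.54). LHY (0.13), a morning gene like CCA1, and GI (-0.46) were not called, so the list shows no common contrast of morning and evening genes. The hour of harvest of each organ was not given in the sources used here. Of 19 hypoxia genes 10 were tested, 1 was higher in shoots and 6 in roots, and 6 to 9 in roots when single libraries were left out (9 without shoot library 4, 8 without shoot library 1), with the pyruvate decarboxylase PDC1 at 0.567 ± 0.684 CPM in shoots and 94.1 ± 12.6 CPM in roots.

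The spread within an organ was not even over the lists. Over all genes tested, the median SD of log2 CPM was 0.23 in shoots and 0.2 in roots. For 21 tested touch and early stress genes of 25 it was 1.22 in shoots and 0.22 in roots, and 19 of the 21 had the larger SD in shoots. The summed level of the list was 254, 474, 769 and 1450 CPM in shoots, lowest in library 1 and highest in library 4, and 809, 815, 847 and 849 CPM in roots. ERF104, an early ethylene-response factor, had 0, 16.5, 40.3 and 106 CPM in shoots, against 13.1, 21.4, 21.3 and 19.9 CPM in roots. ZAT10, a zinc-finger repressor of stress responses, had 3.29, 32.2, 88.7 and 143 CPM in shoots, against 50.4, 65.7, 63.6 and 74.4 CPM in roots. Neither was called, and in both the shoot values enclosed the root values. ZAT12 had 0, 5.25, 11.6 and 17.9 CPM in shoots, against 104, 104, 106 and 106 CPM in roots, and was called higher in roots (log2 fold change -3.62 ± 0.46, adjusted p = 0.00029). Of the list, 2 genes were called higher in shoots and 5 in roots; without shoot library 1 these were 5 and 5, and without shoot library 4, 3 and 9.

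In the LSU and sulfur deficiency list shoot library 1 was again the lowest and library 4 the highest, with a median SD of 0.53 in shoots and 0.2 in roots and a summed level of 689, 909, 1120 and 1210 CPM in shoots, against 839, 798, 725 and 763 CPM in roots. SDI2 had 51.3, 68.9, 111 and 154 CPM in shoots, against 57.6, 60.6, 59.6 and 64.1 CPM in roots, and was not called. The 4 called as higher in shoots became 2 to 5 when single libraries were left out. The pathogenesis-related gene PR2 had 45.4, 0, 1.79 and 0.687 CPM in shoots, against 0.654, 0.932, 0 and 0 CPM in roots, and PR1 had 25.7, 0.749, 0 and 0 CPM in shoots, against 0, 0, 0.309 and 0 CPM in roots, and neither was tested. PR5 had 57.3, 22.5, 17.9 and 18.5 CPM in shoots, against 3.27, 1.4, 0.926 and 0 CPM in roots, and was called higher in shoots (log2 fold change 4.42 ± 0.77, adjusted p = 0.00157). Shoot library 1 was the highest in all 3. In the photosynthesis lists the larger spread was in roots, with a median SD of 0.05 in shoots and 0.52 in roots. Reference genes for normalisation had an SD of 0.08 in either organ, and 2 of 18 tested were called, both higher in roots: ACT8 (141 ± 8.06 CPM in shoots, 417 ± 31.1 CPM in roots) and GAPC1 (558 ± 41.1 CPM in shoots, 1520 ± 56.7 CPM in roots). EF1A had 1120 ± 50.1 CPM in shoots and 1130 ± 43.6 CPM in roots. What sets the shoot libraries apart in these lists was not tested.

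**Figure D5:**
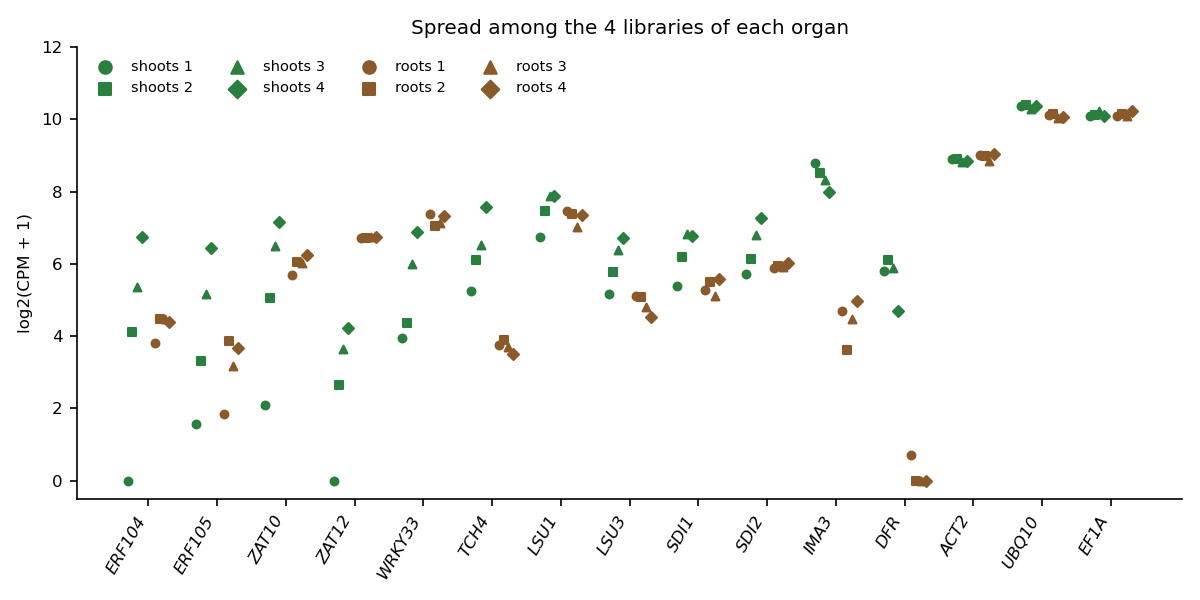
Levels of 15 genes as log2(CPM + 1) in each of the 8 libraries, shoots in green and roots in brown, with a marker shape for each replicate number. The early stress genes ERF104 and ZAT10 span a wide range among shoots, with library 1 lowest and library 4 highest, whereas ACT2, UBQ10 and EF1A lie close together.

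The organ differences could be set beside those of WT under [dS], a separate set of 8 libraries in which shoots were pool 2 and roots pool 4. There 9828 of 16808 tested genes were called (58.5%). Of 15742 genes tested under both supplies, 7844 were called in the same direction in both, which is 85.8% of the 9139 called under [dS] and 84.7% of the 9264 called under [nS], and 20 in opposite directions. At 4-fold or more, 3907 were shared, 93.8% of 4166 under [dS] and 88.6% of 4408 under [nS], and none was opposite. Every photosystem, carbon fixation, root hair, triterpene, nitrogen and phosphate gene called under [nS] and tested under both was called the same way under [dS]. The aliphatic list kept 14 of 21 such calls and the indole list 14 of 21, and the sulfate transporters 8 of 10. SULTR2;1 had 79.3, 71.5, 81.5 and 101 CPM in shoots under [dS], against 194, 221, 231 and 239 CPM in roots, so the organ with the higher level was the root there (log2 fold change -1.41 ± 0.09) and the shoot under [nS] (1.37 ± 0.11). The difference between the supplies was -2.79 ± 0.15 on the log2 scale in an interaction fit over the 16 WT libraries (edgeR, adjusted p = 1.3e-16), in which each organ and supply is a pool of its own. SULTR2;1 was picked for its opposite calls in the same libraries, so that p-value is no independent support.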

How the data were processed

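Shoots and roots of WT seedlings under [nS] were compared, 4 libraries each, from 3′ RNA sequencing with barcoded oligo(dT) primers. The deposited values are raw counts per gene, one table per sample; the submitters' processing notes name STAR 2.7.8a, DESeq2 and TAIR10, whereas how reads were counted, over which annotation, and whether molecular identifiers were collapsed is not given in the sources used here. Counts with PCR copies are not independent molecules, so intervals and floors cover counting error only. Of the gene identifiers, 37051 matched RefSeq, which gave names and sequences, and 285 did not. Genes were filtered on low counts, scaled by TMM and tested with the quasi-likelihood test of edgeR 4.0.16 (limma 3.58.1, R 4.3.3) on the 8 libraries; DESeq2 1.42.0, other scalings and filters, a replicate block, thinning and leaving out single libraries were alternatives. Shares were compared by exact permutation tests. Floors are 3 counts over the 4 libraries of an organ, and counting intervals of ratios are exact at 95%.

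The members and gene lists were chosen with earlier results of these data known. The rule for named genes took, in each list, the 4 tested members with the highest mean log2 CPM and the called member with the largest change in each direction, all members of small transporter and isozyme families, the 12 genes furthest apart in each direction whose mean log2 CPM reached 5 and whose organs did not overlap, organ markers, and genes that the study's transcript section names. Genes outside it were chosen after their values were seen. One upstream sequence is not reported here.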

Additional observations from a re-analysis of the deposited data

Results flagged for a closer look

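Among 392 groups of 4 libraries examined (genes named in the report, 1 organ each), 21 had a library whose gap to the nearest other, as a share of the group's range, passed 0.829, and chance alone flags about 1 in 20 such groups. In shoots, library 4 stood apart in IGMT2 (gap 0.98, 21.3 CPM against 2.63 to 3 CPM in the others) and in PAP1 (0.897, 13 CPM), GL2 (0.865, 8.24 CPM), NIT1 (0.884, 1270 CPM), SERAT2;1 (0.879, 52.2 CPM) and MS1 (0.836, 1280 CPM), the last 5 as the lowest value. Shoot library 1 was the highest in PR1 (0.971, 25.7 CPM), PR2 (0.961, 45.4 CPM) and PR5 (0.884, 57.3 CPM against 17.9 to 22.5 CPM) and the lowest in CYP81F1 (0.94, 5.27 CPM). Shoot library 2 was the lowest in SOT17 (0.919, 54.7 CPM against 77 to 79 CPM) and the highest in PGK1 (0.901, 1640 CPM), and shoot library 3 was the highest in GAPC1 (0.936, 619 CPM) and the lowest in YAB3 (0.868, 26.9 CPM). In roots, library 1 was the highest in MYB28 (0.981, 36 CPM) and LACS2 (0.883, 54.3 CPM), library 2 was the highest in JAL34 (0.94, 1050 CPM) and ZIP2 (0.833, 103 CPM) and the lowest in NAS2 (0.838, 229 CPM), and library 4 was the lowest in MYB34 (0.919, 52.3 CPM) and CHS (0.859, 770 CPM).

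Among the 20 genes whose shoot-over-root change was called in opposite directions under [dS] and [nS], 4 were members of the gene lists, and an interaction fit of the 16 WT libraries (edgeR) gave the difference, [dS] minus [nS], on the log2 scale; it called 1200 of 17398 genes (6.9%). It was -2.79 ± 0.15 for SULTR2;1 (adjusted p = 1.3e-16) and -1.49 ± 0.12 for the methionine chain-elongation enzyme IMD1 (adjusted p = 1.9e-12), whose own changes were -0.78 under [dS] and 0.7 under [nS]. For the copper importer COPT2 it was -1.82 ± 0.41 (adjusted p = 0.0057), with -0.97 under [dS] and 0.84 under [nS], the second not called without shoot library 1 (0.66), and for the early stress factor WRKY53 it was 2.03 ± 0.49 (adjusted p = 0.0043), with 0.85 under [dS] and -1.19 under [nS]. The fit was added after the data were seen, and these genes were picked for opposite calls in the same libraries. Their adjusted p-values are therefore no independent support.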

How the results depend on the processing

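The counts of 4633 genes higher in shoots and 4820 higher in roots became 3064 and 9389 with library totals as the scale and 2411 and 2137 at 4-fold. Leaving out single libraries gave 4653 to 4772 and 4809 to 5022. With nuclear counts as the denominator, the photosynthesis share differed by 27.4 percentage points and the share of the 10 most abundant genes by 5.49. The difference in genes detected, shoots minus roots, was -1804.8 at 1 count or more and -1633 without thinning. Library totals turned the sign of SCR (-0.15), OASA1 (-0.6), IMD1 (-0.07), LSU2 (-0.76) and MYC3 (-0.74); the cause was not tested beyond the shift of all genes given in the report. The deviations of same-numbered shoots and roots correlated at 0.017, -0.011, 0.02 and 0.049, so no shared deviation was visible. These values cannot tell whether samples of the same number came from the same seedlings, which the labels do not say. A replicate block gave 4634 and 4802 calls. The number of replicates and the depth limit what can be said of genes near the low-count filter.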
